A study of Mus musculus with 40 samples.

Results

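The genes described here make fatty acids and build them into triglyceride, or regulate and supply that pathway. They were chosen as the rows of the deposited gene table whose symbol is on a list of 35 genes, and all 35 were found among the 20593 genes of the table. Of these, 34 reached the level required for a test (10 or more in 5 or more libraries), with 15377 genes tested in all. The exception was Elovl3, an elongase best known from skin and brown fat, with values of 0 to 5.51 in every library.

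Messenger RNA was measured in bulk in livers of C57BL/6 mouse fetuses on gestational day 18.5. The dams were kept on 1 of 4 diets from 13 weeks before breeding and while pregnant. The control diet took 10% of its calories from fat and held 2 mg/kg folic acid (CD), or 10 mg/kg (CDF). The high-fat diet, which the submitters use as a mouse model of gestational diabetes, took 45% of its calories from fat and held 2 mg/kg folic acid (WD), or 10 mg/kg (WDF). Male and female fetuses formed separate groups of 5 libraries each, so that 8 groups were compared (CD, CDF, WD and WDF, each as M or F). The labels name no transgene or drug in any group, and every dam received folic acid. Since dams and litters are not named in the labels, littermates may be counted as separate fetuses, and every p-value refers to the spread between fetuses only.

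A total of 38 libraries was used. CD females replicate 4 and CDF females replicate 5 were left out of the main values, which leaves 4 libraries in each of those groups. Both were labelled liver but held 7708 and 5278 for Alb, the gene of serum albumin, and 101239 and 67014 for Sftpc, which encodes a surfactant protein of the lung. In the 38 libraries Alb lay between 641907 and 1496611, and the values of all genes summed to between 15.0 and 27.8, in units of 1000000. Sftpc was still high in CD females replicate 5 (30176) and in CDF females replicate 4 (24797). It was 5978 in WDF males replicate 2, 4012 in CD males replicate 5, 2008 in WD females replicate 4 and 1538 in CDF females replicate 2, and at most 140 in every other library used. CDF females replicate 4 stood apart in other values too. Its total of 27.8 was the highest of the 38, with 20.8 next. Its 4 intestine markers summed to 12890, against at most 5116 in the other libraries used. Xist, a transcript specific to females, was at 648 there, and between 3138 and 6639 in the other female libraries used. Whether this library is mixed in sex or tissue was not tested. Adipocyte markers were near 0: of 7 listed, 2 were found in the table, and their summed value was at most 12.8 in any library.

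Fatty acids are made in the cytosol from acetyl-CoA. Acetyl-CoA carboxylase turns it into malonyl-CoA, fatty acid synthase joins the units into palmitate, and elongases and desaturases then lengthen the chain and add double bonds. Acyl-CoA synthetases activate the product, and glycerol-phosphate acyltransferases, lipins and diacylglycerol acyltransferases place it on glycerol. In liver the pathway is known to be controlled at the level of transcription by SREBP-1c (Srebf1), ChREBP (Mlxipl) and the liver X receptor (Nr1h3), and by dietary fatty acids, with polyunsaturated ones lowering its transcripts.

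Levels between genes were compared as normalized read counts per kilobase of annotated exon, as the median of the 38 libraries. The highest level was that of Scd2, at 3590 per kilobase. Scd2 is a stearoyl-CoA desaturase that makes monounsaturated fatty acids and is known as the main form before birth. Its relative Scd1, the main form of adult liver, stood at 1330 per kilobase. The trans-2-enoyl-CoA reductase Tecr, which completes each elongation cycle, stood at 1410. Dgat2, which adds the last acyl chain to triglyceride, stood at 1280, far above Dgat1, which catalyses the same step, at 80.7. At the lower end were the lipase-family gene Pnpla3 at 21.4, the phosphatidate phosphatase Lpin3 at 7.35 and Elovl3 at 0.491. The other 2 desaturases, Fads2 and Fads1, stood at 1250 and 990, so that all 4 desaturases were among the 8 highest of the 35 members.

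**Figure D1:**
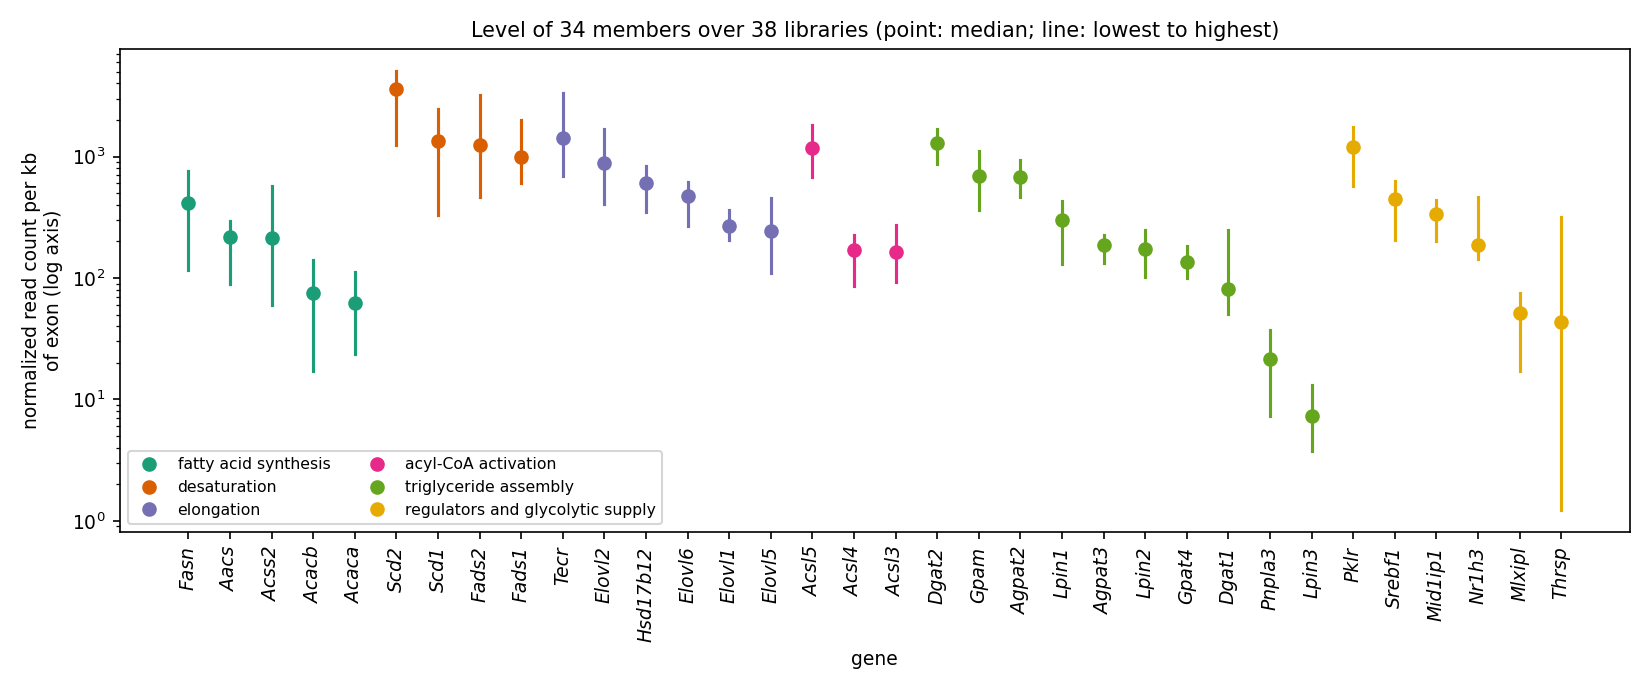
Level of the 34 tested members in normalized read counts per kilobase of annotated exon (log axis), grouped by role. Points are medians of 38 libraries and lines run from the lowest to the highest library; Scd2 is highest at 3590, and Thrsp has the longest line.

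The spread within groups differed between members. The coefficient of variation, the SD as a percent of the group mean, ran from 4.6 to 18.5% over the 8 groups for Agpat3, which adds the second acyl chain to glycerol-phosphate. For Dgat2 it ran from 7.9 to 22.9%. For Acss2, the cytosolic enzyme that makes acetyl-CoA from acetate, it ran from 19.5 to 49.5%. For Thrsp, the Spot 14 protein that supports fatty acid synthesis and is induced by thyroid hormone and carbohydrate, it ran from 34.5 to 125.9%. Members with a wide spread need a larger difference to pass the same test.

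Promoters are shown for the 2 members with the smallest p for maternal fat (Acss2 and Thrsp) and for the 1 member that held a match to the element bound by ChREBP (Pklr, liver pyruvate kinase, which supplies pyruvate from glycolysis). Sequences are RefSeq windows of 300 bases on the build GRCm38.p6, from 250 bases before the start site to 50 after it, in the direction of transcription. Capitals mark matches on either strand to the motifs searched, which in these 3 windows were the CCAAT box (CCAAT, read as ATTGG on the other strand) and the carbohydrate response element.
Acss2, chr2:155517793-155518092, plus strand: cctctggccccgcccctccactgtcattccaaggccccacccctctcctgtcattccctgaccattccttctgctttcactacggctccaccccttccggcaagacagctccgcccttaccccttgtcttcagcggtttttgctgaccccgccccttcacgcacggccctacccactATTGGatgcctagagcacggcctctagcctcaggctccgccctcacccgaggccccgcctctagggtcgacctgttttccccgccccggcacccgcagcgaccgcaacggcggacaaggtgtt
Thrsp, chr7:97417501-97417800, minus strand: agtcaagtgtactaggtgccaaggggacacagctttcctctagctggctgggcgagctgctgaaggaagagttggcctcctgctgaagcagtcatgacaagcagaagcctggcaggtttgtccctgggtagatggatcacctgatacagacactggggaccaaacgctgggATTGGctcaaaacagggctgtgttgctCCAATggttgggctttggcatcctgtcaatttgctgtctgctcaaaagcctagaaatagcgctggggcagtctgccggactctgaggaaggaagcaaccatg
Pklr, chr3:89136373-89136672, plus strand: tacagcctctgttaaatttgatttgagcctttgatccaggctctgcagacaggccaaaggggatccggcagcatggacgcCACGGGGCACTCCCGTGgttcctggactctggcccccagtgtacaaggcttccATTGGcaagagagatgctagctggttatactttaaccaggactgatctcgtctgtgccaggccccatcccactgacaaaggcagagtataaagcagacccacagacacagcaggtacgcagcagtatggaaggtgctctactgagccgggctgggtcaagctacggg

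In the Acss2 window the match begins 73 bases before the start site. In the Thrsp window 2 matches begin 79 and 52 bases before it, and in the Pklr window the long match begins 170 bases before it. A window was found for 28 of the 35 members, some with more than 1 start site, which gave 39 windows. The CCAAT box was present in 17 of the 39 windows (43.6%), against 37.4% of 32851 windows of all genes. The E-box CACGTG was present in 4 of the 39, against 7.15% of all windows. The sterol response element TCACNCCAC, bound by SREBP, was found in 1 of the 39, that of Mlxipl, and in 408 of the 32851 windows. The liver X receptor element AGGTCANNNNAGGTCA was found in 0 of the 39, against 0.0152% of all windows. The carbohydrate response element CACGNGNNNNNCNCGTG was found in the Pklr window alone, against 0.0457% of all windows. These letters in these windows are a description of the sequence, not of binding, and enhancers farther away were not searched.

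Maternal fat was the comparison in which the members stood lower. The 45% and 10% fat groups were compared within each sex and folic acid dose, and the 4 differences were averaged, with limma on log2(value + 1). Acss2 fell by 1.05 on the log2 scale (SE 0.199, 95% interval -1.46 to -0.65, adjusted p = 0.0221), a 2.07-fold lower level. It was the only member past the adjusted threshold of 0.05. Over all genes tested, 7 passed, all of them lower, which is 0.0455%. A lower value in bulk tissue cannot be told apart from fewer cells of a type or less of this RNA per cell.

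The remaining members lay mostly on the same side without passing the adjusted threshold. The estimate was below 0 for 32 of the 34 tested members, against 50.2% of all genes tested. The median log2 difference of the members was -0.25, and that of all genes was -5e-04. At an unadjusted p under 0.05, 17 members were lower and 0 were higher, while 4.25% of all genes were lower at that level. The members share libraries, so these counts are not independent observations.

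By role, the difference was largest in the desaturases, with a median log2 difference of -0.59 over 4 members, of which 3 had an unadjusted p under 0.05. The fatty acid synthesis enzymes followed with a median of -0.36 over 5 members, 4 of them under 0.05. The median was -0.26 over the 3 acyl-CoA synthetases (2 under 0.05) and -0.24 over the 6 tested elongation genes (3 under 0.05). The 10 triglyceride assembly genes had a median of -0.08 (3 under 0.05), and the 6 regulators and glycolytic supply genes a median of -0.10 (2 under 0.05). Differences between roles were not tested.

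**Figure D2:**
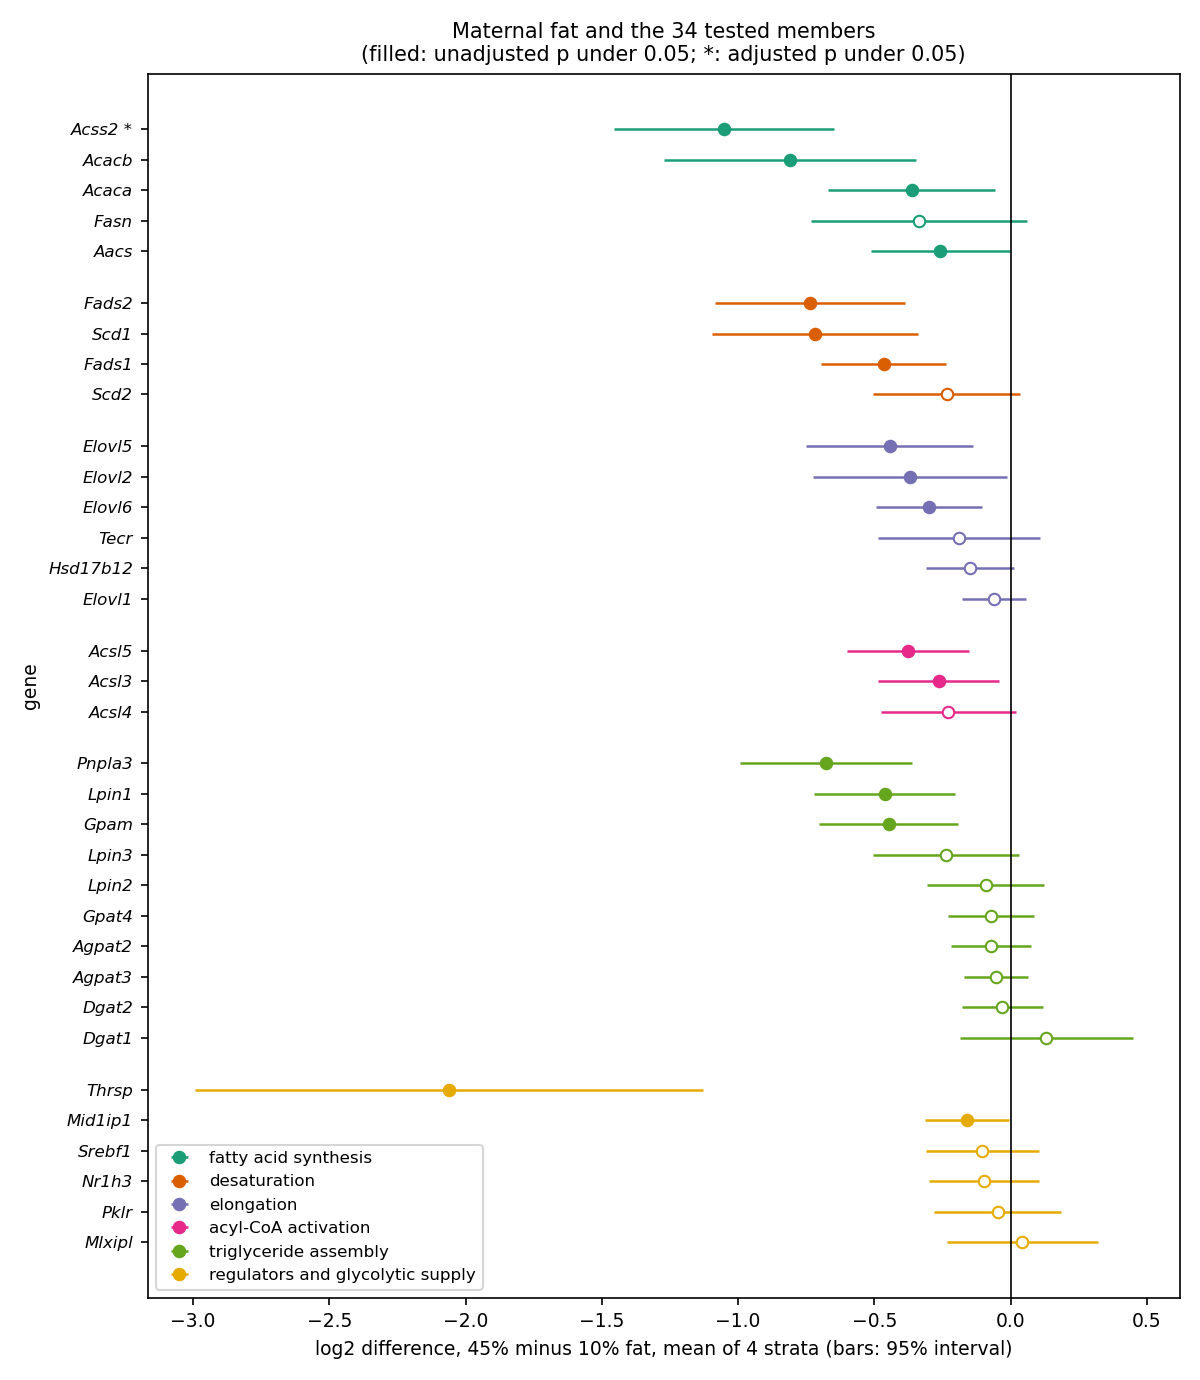
Log2 difference of each tested member between 45% and 10% maternal fat, mean of 4 strata, with 95% intervals, grouped by role. Filled points have an unadjusted p under 0.05 and the star marks an adjusted p under 0.05; Acss2 is the only starred gene and 32 of 34 points lie left of 0.

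Acss2 (ENSMUSG00000027605.18) lies on chromosome 2 of the build mm10, from 155517948 to 155585724 on the plus strand. In males at 2 mg/kg folic acid its normalized read counts were 4977, 4007, 3390, 2135 and 3786 in CD and 1325, 1790, 1769, 2658 and 611 in WD. In males at 10 mg/kg they were 5712, 824, 3529, 4118 and 3640 in CDF and 1164, 1794, 873, 808 and 1305 in WDF. Both male pairs overlapped through 1 control library each, CD replicate 4 and CDF replicate 2. In females at 2 mg/kg they were 3363, 4085, 3406 and 1233 in CD and 1650, 2206, 1802, 1362 and 1466 in WD. In females at 10 mg/kg they were 2961, 2616, 5857 and 2584 in CDF and 2404, 1489, 2387, 1294 and 2059 in WDF. In that last pair every CDF library lay above every WDF library, while in CD females replicate 5 lay below all 5 WD libraries. Over all 38 libraries the mean was 3457 ± 1324 (SD, n = 18) at 10% fat and 1611 ± 551 (SD, n = 20) at 45% fat. The log2 difference was -1.26 and -1.40 in the male pairs and -0.72 and -0.82 in the female pairs, at 2 and 10 mg/kg folic acid in that order. None of the 4 pairs passed alone, with adjusted p = 0.627, 0.423, 0.662 and 0.532.

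Thrsp lies on chromosome 7, from 97412938 to 97417730 on the minus strand. In males its values were 281, 245, 87.3, 131 and 233 in CD and 15.3, 32.8, 19.5, 125 and 2.74 in WD. In CDF males they were 267, 2.7, 208, 123 and 71.0, and in WDF males 15.1, 106, 34.7, 12.1 and 7.42. In each male group on 45% fat 1 library was high (125 and 106) and the other 4 were at most 34.7. In females they were 184, 148, 107 and 81.8 in CD and 28.9, 133, 37.9, 50.2 and 24.8 in WD. In CDF females they were 112, 220, 172 and 701, and in WDF females 102, 11.2, 231, 24.3 and 53.9. The groups overlapped in all 4 pairs. The log2 difference was -2.06 (SE 0.459, adjusted p = 0.0750), the largest in size among the members but with the widest error.

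Pnpla3, a lipid droplet protein with lipase and acyltransferase activity whose transcript follows SREBP-1c, had low values in every group. They were 26.6, 37.3, 45.4, 49.7 and 47.8 in CD males and 20.2, 17.6, 24.1, 40.2 and 17.4 in WD males. In CDF males they were 39.3, 11.3, 56.2, 36.4 and 37.8, and in WDF males 31.8, 23.2, 32.4, 26.1 and 22.7. Each male pair overlapped. In females they were 58.1, 53.0, 42.3 and 33.6 in CD and 37.7, 28.3, 27.9, 12.7 and 21.5 in WD. In CDF females they were 56.9, 53.2, 58.2 and 40.3, and in WDF females 44.3, 23.0, 22.7, 32.6 and 32.6. In each female pair only 1 library of the 45% fat group reached the range of its controls. The log2 difference was -0.68 (SE 0.156, adjusted p = 0.0923).

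The desaturases Fads2 and Fads1, neighbours on chromosome 19, introduce the delta-6 and delta-5 double bonds of polyunsaturated fatty acids. Fads2 was at 9031, 6673, 6317, 4060 and 6701 in CD males and at 3280, 3518, 3858, 4750 and 2329 in WD males. It was at 10214, 1536, 6628, 8643 and 6045 in CDF males and at 2734, 3985, 2687, 2287 and 2631 in WDF males. Apart from CDF replicate 2, every CDF male library lay above every WDF one. In females Fads2 was at 6313, 7343, 6013 and 2540 in CD and at 3645, 4170, 3683, 3039 and 3339 in WD. It was at 5509, 5463, 10490 and 3551 in CDF females and at 4407, 3452, 4566, 3356 and 4236 in WDF females. Each female pair overlapped through 1 low control library. The log2 difference of Fads2 was -0.74 (SE 0.172, adjusted p = 0.0957).

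Fads1 was at 7680, 6160, 6593, 5083 and 5854 in CD males and at 4033, 4805, 4282, 4727 and 2968 in WD males, with no overlap. It was at 9632, 2898, 6214, 7139 and 6103 in CDF males and at 3740, 4309, 3478, 2989 and 4112 in WDF males. Here too CDF replicate 2 was the 1 low control library. Replicate 5 of CD and replicate 4 of CDF were the low control libraries of the female pairs. In females it was at 5745, 6545, 5764 and 3090 in CD and at 4225, 5187, 4076, 3836 and 4584 in WD. It was at 5461, 5619, 8532 and 4249 in CDF females and at 4698, 4037, 4982, 3897 and 5152 in WDF females. The log2 difference was -0.47 (SE 0.113, adjusted p = 0.121).

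Scd1 (chromosome 19, 44394455 to 44407879, minus strand) was at 11538, 9574, 7622, 5883 and 8814 in CD males and at 4102, 4930, 5075, 9078 and 2415 in WD males. It was at 11193, 1613, 8556, 10248 and 10481 in CDF males and at 3953, 5666, 3420, 2850 and 3414 in WDF males. CDF male replicate 2 lay below all 5 WDF male libraries. In females it was at 9944, 11726, 7952 and 4719 in CD and at 6000, 6708, 6452, 4096 and 4121 in WD. It was at 9314, 6868, 12155 and 7141 in CDF females and at 8274, 4692, 6129, 5070 and 6519 in WDF females. The log2 difference was -0.72 (SE 0.186, adjusted p = 0.167). Scd2, the more abundant desaturase, had a smaller difference of -0.23 (SE 0.133, adjusted p = 0.766), with means of 21033 ± 5784 (SD, n = 18) and 17205 ± 3619 (SD, n = 20). The 2 genes are related in sequence, and how reads shared by both were counted is not stated, so they may not be fully separated.

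**Figure D3:**
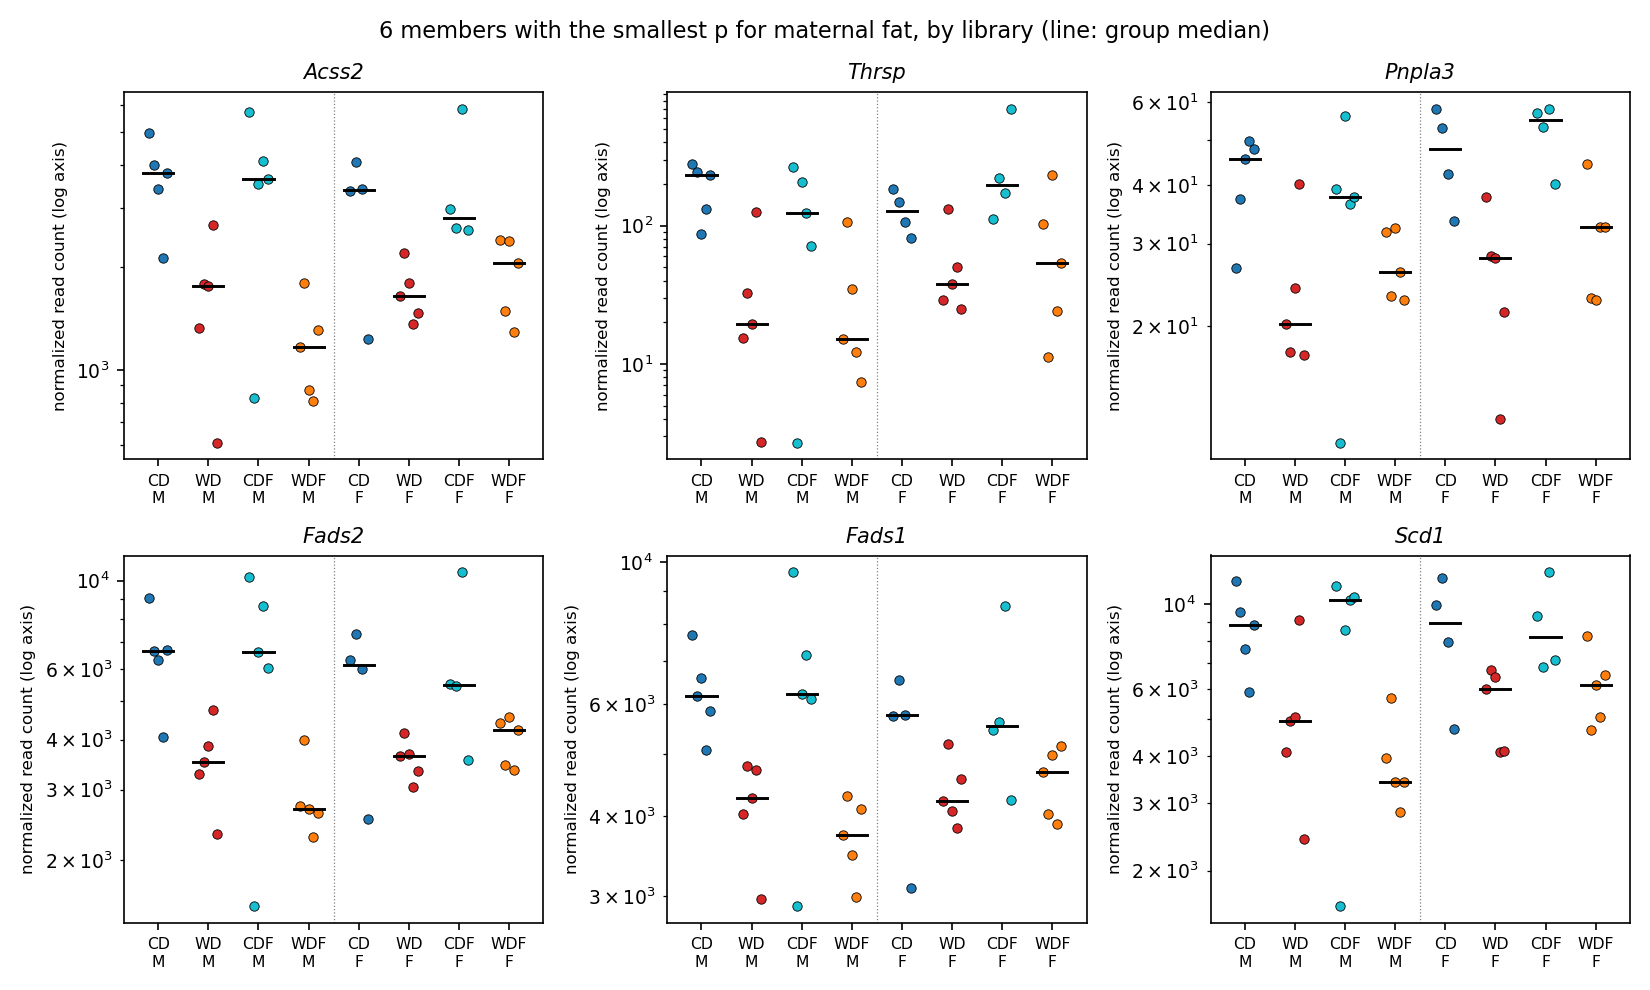
Normalized read counts (log axis) of the 6 members with the smallest p for maternal fat, by group; each point is a library, each line a group median, and M and F are males and females. The 45% fat groups (WD, WDF) have lower medians than the 10% fat groups of the same sex and folic acid dose, and CDF males hold 1 low library, replicate 2.

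The other fatty acid synthesis enzymes had estimates below 0. Acacb, the mitochondrial acetyl-CoA carboxylase whose malonyl-CoA also restrains fatty acid oxidation, had a difference of -0.81 (SE 0.227, adjusted p = 0.248). Its range was 167 to 1359 with a median of 954 at 10% fat, and 165 to 897 with a median of 508 at 45% fat. Acaca, the cytosolic carboxylase, had a difference of -0.36 (SE 0.151, adjusted p = 0.546). Fasn, fatty acid synthase, had -0.34 (SE 0.195, adjusted p = 0.783), with means of 5334 ± 2031 (SD, n = 18) and 3971 ± 1082 (SD, n = 20). Aacs, which activates acetoacetate for lipid synthesis, had -0.26 (SE 0.126, adjusted p = 0.653). For Fasn and Acaca the log2 estimate in females at 10 mg/kg folic acid was 0.02, although the means were lower on 45% fat there too (Fasn 5271 in CDF and 4514 in WDF, Acaca 1160 and 1046). In that pair CDF replicate 4 was low, at 1266 for Fasn and 402 for Acaca.

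Among the elongation genes, Elovl5, which lengthens polyunsaturated chains, had a difference of -0.44 (SE 0.151, adjusted p = 0.366). Elovl2, which acts on the longest of them, had -0.37 (SE 0.175, adjusted p = 0.639). Elovl6, which extends palmitate, had -0.30 (SE 0.0960, adjusted p = 0.320). The values of Tecr, Hsd17b12 and Elovl1 were -0.19, -0.15 and -0.06, each with an unadjusted p above 0.05. Among the acyl-CoA synthetases the values were -0.38 for Acsl5, -0.26 for Acsl3 and -0.23 for Acsl4. Acsl5, which is abundant in liver, had a median of 6773 at 10% fat and 4814 at 45% fat.

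Triglyceride assembly was divided. Lpin1, a phosphatidate phosphatase that also acts as a transcriptional coactivator, had a difference of -0.46 (SE 0.128, adjusted p = 0.234). Gpam, the mitochondrial acyltransferase of the first step, had -0.45 (SE 0.125, adjusted p = 0.248). The values of Lpin3, Lpin2, Gpat4, Agpat2 and Agpat3 lay between -0.24 and -0.05, with no unadjusted p under 0.05. For the final step, Dgat2 had a difference of -0.03 (95% interval -0.18 to 0.12), with means of 3975 ± 516 (SD, n = 18) and 3886 ± 540 (SD, n = 20). Dgat1 had 0.13 (95% interval -0.19 to 0.45). For Dgat1 this mean is over pairs on both sides of 0, with estimates of -0.35 and 0.77 in males and 0.42 and -0.31 in females, at 2 and 10 mg/kg folic acid in that order. With library weights in the fit, Dgat1 was higher in WDF than in CDF males (0.78, adjusted p = 0.04). With those weights 241 of 15377 genes passed in that pair, against 0 without them. Without them the smallest adjusted p of the 10 triglyceride assembly genes in that pair was 0.655 with limma. The difference between the final and the earlier steps was not tested.

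The transcripts of the regulators themselves lay near 0. The difference was -0.10 for Srebf1 (95% interval -0.31 to 0.11), 0.04 for Mlxipl (-0.24 to 0.32) and -0.10 for Nr1h3 (-0.30 to 0.10). Srebf1 had means of 2622 ± 602 (SD, n = 18) and 2385 ± 362 (SD, n = 20). These values are of messenger RNA of the whole gene, and neither processing of the SREBP protein nor single isoforms were measured. Pklr had -0.05 (95% interval -0.28 to 0.19), and Mid1ip1, the partner of Thrsp in activating acetyl-CoA carboxylase, had -0.16 (SE 0.0763, adjusted p = 0.640).

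Other genes of the pathway were taken from a list of 30, of which 28 were in the table and 25 were tested. Of these, 1 passed the adjusted threshold and was lower, 0 were higher, and the median log2 difference was -0.05. The gene that passed was Me1, the cytosolic malic enzyme that supplies NADPH for fatty acid synthesis, which fell by 1.10 on the log2 scale (SE 0.176, adjusted p = 0.00585). Its mean was 744 ± 293 (SD, n = 18) at 10% fat and 345 ± 131 (SD, n = 20) at 45% fat. Acly, which makes acetyl-CoA from citrate, had a difference of -0.55 (SE 0.136, adjusted p = 0.141).

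The 4 fat pairs use different libraries. They share a common estimate of the spread, and males and females may be littermates, so they are not independent repeats. In males at 2 mg/kg folic acid 11 members were lower at an unadjusted p under 0.05 and 0 higher, against 3.30% of all genes lower. In males at 10 mg/kg 14 were lower and 1 (Dgat1) was higher, against 3.47% of all genes lower. In females 2 were lower at 2 mg/kg (Gpam and Pnpla3), against 3.51%, and 3 at 10 mg/kg (Pnpla3, Nr1h3 and Thrsp), against 3.91%. For Nr1h3 and Thrsp the CDF females held 1 high library, replicate 4, at 1169 and 701. The other CDF female libraries were at most 551 and 220. The female counts depended on the libraries used and on the fit. Without the 2 libraries of high Sftpc, CD replicate 5 and CDF replicate 4, 11 members were lower in females at 2 mg/kg, with 462 of 15230 genes, and 5 at 10 mg/kg, with 98 genes. With library weights 16 were lower at 2 mg/kg, with 1676 of 15377 genes, and 6 at 10 mg/kg, with 255 genes. With only the 2 groups of a pair in the fit, 7 were lower at 2 mg/kg, with 704 of 14096 genes. At 10 mg/kg 4 were, with 140 of 14097 genes. In the main limma fit, 0 members and 0.00% of all genes passed the adjusted threshold in each of the 4 pairs. The difference of the fat effect between sexes was tested as well: its median over members was 0.21 (female minus male), 8 of 34 were below 0 (against 49.8% of all genes), 0 had an unadjusted p under 0.05 (against 1.18% of all genes), and the smallest adjusted p was 0.9998. That median was 0.09 without CD female replicate 5, and 0.02 without both libraries of high Sftpc, with 14 of 34 below 0. The larger counts in males are therefore not shown to differ from those in females.

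The estimate was below 0 in all 4 pairs for 14 members, against 5.48% of all genes tested. These were Acss2 and Acacb, the elongation genes Elovl2, Elovl5, Elovl6 and Hsd17b12, the desaturases Scd1, Fads1 and Fads2, and Acsl5, Gpam, Lpin1, Pnpla3 and Thrsp. Groups that did not overlap were few. In males at 2 mg/kg Fads1 and Lpin1 were lower without overlap, against 0.676% of all genes. In males at 10 mg/kg Elovl6, Hsd17b12 and Acsl3 were, against 1.05%. In females at 2 mg/kg 0 members were, against 1.32%, and at 10 mg/kg Acss2 was, against 0.488%.

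**Figure D4:**
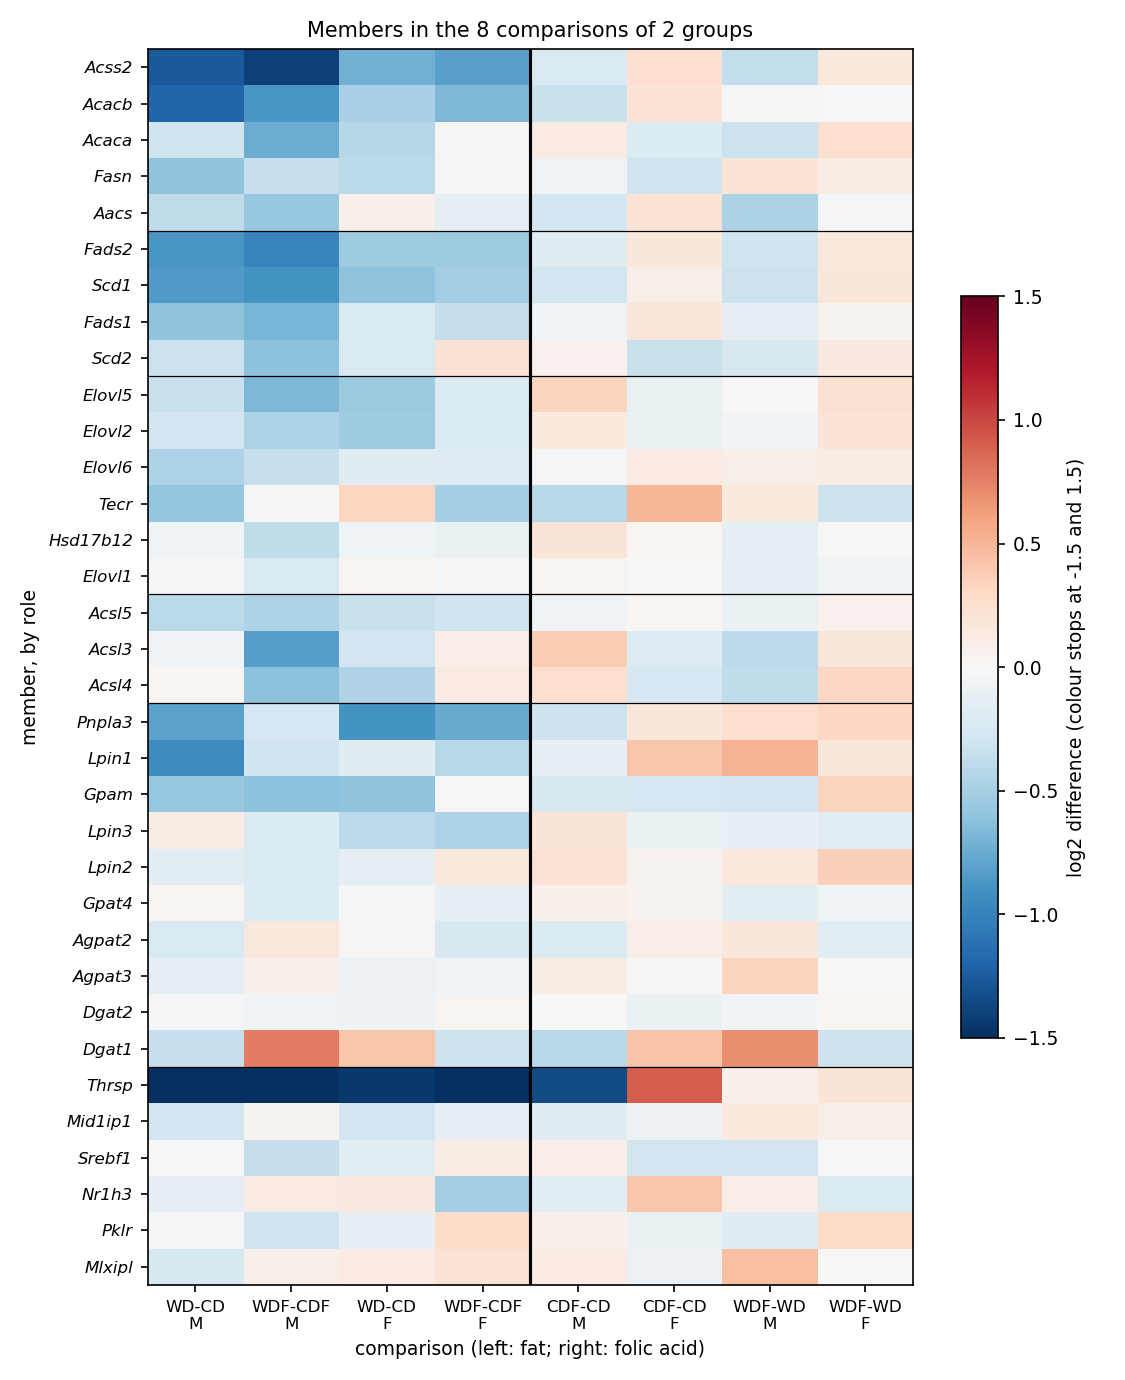
Log2 difference of the 34 tested members (rows, by role) in the 4 fat comparisons (left of the line) and the 4 folic acid comparisons (right); blue is lower and red higher in the group named first, and the colour scale stops at -1.5 and 1.5. Blue prevails on the left, with 30, 28, 27 and 24 of 34 members below 0 from left to right, and 14 below 0 in all 4 columns. On the right 18, 15, 20 and 9 are below 0. No column on either side is of 1 colour.

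Single libraries carried much of the spread. CDF male replicate 2 was the lowest of its 5 libraries in 23 of 34 members. Its hepatocyte markers summed to the highest value of its group, 3919260, and its lung markers to 36.5, the highest of a group whose range began at 24.1. Without it, 8 members passed the adjusted threshold for maternal fat (Acss2, Thrsp, Pnpla3, Scd1, Fads1, Fads2, Acacb and Acsl5), and 53 genes passed in all, which is 0.345%. The Acss2 difference was then -1.17 (adjusted p = 0.000247), and that of Scd1 was -0.85 (adjusted p = 0.000883). In the opposite direction, without CD female replicate 2 or CDF female replicate 3 the Acss2 difference was -1.0 or -0.98, with an adjusted p of 0.0558 or 0.0664, so that 0 members passed. CD female replicate 5, with high Sftpc, was the lowest of its 4 libraries in 27 of 34 members, and CDF female replicate 4, also with high Sftpc, in 21. Without those 2 libraries of high Sftpc, which leaves 36, 3 members passed (Acss2, Fads2 and Fads1). With all 40 libraries 0 members passed, and 23 of 34 were below 0.

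Markers of other cells moved along with maternal fat in part. Of 12 erythroid markers 12 were above 0, 7 at an unadjusted p under 0.05, with a median log2 difference of 0.23. Over all 15377 genes tested 7663 were above 0 and 7714 below, with 500 higher and 653 lower at that level. The summed value of the erythroid markers ranged from 46589 to 91643 over the 10% fat libraries and from 61854 to 105535 over the 45% fat libraries. With the mean erythroid level as a covariate the Acss2 difference was -1.17 (adjusted p = 0.0656) and the median over members was -0.20, with 0 genes past the threshold. All 5 mesothelial markers were below 0 (4 at an unadjusted p under 0.05, median -0.59), with summed values of 508 to 2687 at 10% fat and 254 to 1231 at 45% fat. All 8 lung markers were below 0 (0 at an unadjusted p under 0.05, median -1.0), with summed values of 20.7 to 39508 and 14.7 to 8457. The 6 tested muscle and heart markers were also below 0 (median -0.65, 0 at an unadjusted p under 0.05), with summed values of 34.2 to 5623 and 22.7 to 1460. Hepatocyte markers did not move to one side: 6 of 11 were below 0, 0 had an unadjusted p under 0.05, and the median was -0.01. The part of the mesothelial, lung and muscle markers in the member differences was not tested.

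Folic acid was compared at 10 against 2 mg/kg within each sex and fat level; these comparisons share libraries with the fat comparisons. Averaged over the 4 pairs, 0 members and 0.00% of all genes passed the adjusted threshold with limma. At an unadjusted p under 0.05, 0 members were lower and 0 higher, against 2.33% of all genes in either direction. The median over members was -0.01, with 21 of 34 below 0, against 50.5% of all genes. The smallest p was that of Lpin1, at 0.25 (SE 0.128, unadjusted p = 0.0633, adjusted p = 0.9999). Lpin1 was at 3997, 4020, 3105, 4108 and 2921 in CD males and at 3557, 2579, 4189, 4023 and 2493 in CDF males. It was at 1256, 1439, 2620, 2822 and 1678 in WD males and at 1858, 3040, 2875, 2268 and 3665 in WDF males. Both male pairs overlapped, and the 3 lowest male values were all in WD. In females it was at 3521, 3377, 2693 and 1511 in CD and at 3396, 3298, 3800 and 3618 in CDF. On 45% fat it was at 3644, 2492, 1847, 2551 and 1619 in WD females and at 2640, 1604, 3571, 2570 and 3238 in WDF females.

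In the separate pairs, 0 members and 0.00% of all genes passed the adjusted threshold with limma. In males on 10% fat 0 members had an unadjusted p under 0.05, against 3.49% of all genes, and in females on 10% fat 0, against 7.78%. In females on 45% fat 0 had one, against 1.44%. In that pair 25 of 34 members were above 0, with a median of 0.10, against 7807 of 15377 genes above 0. In males on 45% fat 3 members had one, all higher at 10 mg/kg, against 8.81% of all genes, a share near the background. These were Agpat3 at 0.33 (SE 0.113, adjusted p = 0.456), Lpin1 at 0.52 (SE 0.248, adjusted p = 0.562) and Dgat1 at 0.69 (SE 0.303, adjusted p = 0.536). Agpat3 was at 1034, 1040, 1253, 1571 and 1406 in WD males and at 1485, 1638, 1752, 1479 and 1500 in WDF males. Only WD replicate 4 reached the WDF range. Dgat1 was at 307, 277, 238, 197 and 155 in WD males and at 230, 429, 401, 352 and 495 in WDF males, which overlap.

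The member with the smallest p in each of the other folic acid pairs was as follows. In males on 10% fat it was Acsl3, an acyl-CoA synthetase of lipid droplets, at 947, 899, 770, 400 and 787 in CD and 1053, 677, 877, 1187 and 1025 in CDF (difference 0.38, SE 0.213, adjusted p = 0.908). In females on 10% fat it was Nr1h3, at 404, 451, 465 and 600 in CD and 485, 551, 518 and 1169 in CDF (difference 0.42, SE 0.214, adjusted p = 0.507). Without CDF female replicate 4, the 1 high library, the Nr1h3 difference was 0.12, and without CD male replicate 4, the 1 low library, that of Acsl3 was 0.16. In females on 45% fat it was Lpin2, a lipin abundant in liver, at 2487, 1789, 1718, 1694 and 1563 in WD and 3039, 2481, 2019, 2473 and 1867 in WDF (difference 0.36, SE 0.205, adjusted p = 0.948). The groups overlapped in all 3 pairs.

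The difference of the fat effect between folic acid doses had a median of 0.03 over the members, with 14 of 34 below 0, against 48.6% of all genes. With limma 0 members and 0.00% of all genes passed, and 0 members had an unadjusted p under 0.05, against 4.66% of all genes. For Acss2 that difference was -0.12 and for Thrsp 0.35. In the authors' deposited tables, which compare 10 with 2 mg/kg folic acid, 0 members had an adjusted p under 0.05 in any of the 4. The smallest adjusted p of a member in the authors' deposited tables was 0.778 in females and 0.9013 in males on 10% fat, and 0.9641 in females and 0.1037 (Dgat1) in males on 45% fat. At an unadjusted p under 0.05 the authors' tables held 5 members in males on 45% fat. Dgat1, Mlxipl and Agpat3 were higher at 10 mg/kg there, and Acsl3 and Srebf1 were lower. They held 2 members in females and 0 in males on 10% fat, and 1 in females on 45% fat. The share of all genes at that level in those tables was not computed. These values come from the authors' own test. Whether it included the 2 lung-like female libraries on 10% fat was not checked.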

How the data were processed

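Per the labels' protocols, libraries of polyadenylated RNA were made with a directional kit and read as paired ends of 43 nt. Per the submitters' processing notes, Trimmomatic 0.39, STAR 2.7.3a, Salmon 1.3.0, DESeq2 1.24 and the build mm10 were used, with no roles stated. How reads were counted is not given in the sources used. The deposited gene values are a signal scale: the authors had divided counts by size factors, since size factors computed again by the median-ratio method came to 1.01 in all 40 libraries. With the smallest step in a library taken as 1 read, 16.1 to 25.7% of its values were whole multiples within 0.1 of a step, so whole reads were not recovered and the depth is unknown. Precision therefore rests on the spread between libraries. The authors also deposited tables of their folic acid comparisons with log2 fold changes, p-values and adjusted p-values.

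Values were taken as log2(value + 1), which understates changes of low genes. Genes at 10 or more in 5 or more libraries were fitted with limma 3.58.1 in R 4.3.3 (1 mean per group, 38 libraries, 30 residual degrees of freedom, with its trend and robust options). P-values were adjusted by the Benjamini-Hochberg method over all 15377 genes, and 0.05 was the threshold. The 12 comparisons were fat, folic acid, their 8 pairs of groups, and the difference of the fat effect between doses and between sexes. The script was tested on simulated data. Libraries correlated at most at 0.982, so none was treated as a copy. A column named without a sex letter was taken as CDF females replicate 1, the one title left for it.

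Levels were divided by the annotated exon length (GENCODE on mm10, all 35 members found), and promoters came from a RefSeq table. Named with every library are members past the adjusted threshold for fat or, if fewer than 6, the 6 with the smallest p, and the member with the smallest p in each folic acid comparison. Other members whose library values are given were chosen after their values were seen. The members, lists and the 2 libraries left out were chosen with earlier results of these data known. The alternatives were other library sets, scalings, filters, pseudocounts, tests and covariates, listed in the closing section with their effect.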

Additional observations from a re-analysis of the deposited data

Results flagged for a closer look

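Libraries that stood apart from the rest of their group were looked for in 11 members (those given with every library), over 88 groups of 4 or 5 libraries, by the gap of the highest or lowest library divided by the range of the group. This marked 9 values. For independent, normally distributed values chance would mark about 1 in 20 groups, or 4.4 of 88. The values here are untransformed counts and the members share libraries, so 9 cannot be judged against 4.4. Acss2 was at 5857 in CDF females replicate 3, against 2584 to 2961 in the other libraries. Thrsp was at 106 in WDF males replicate 2 (others 7.42 to 34.7), at 125 in WD males replicate 4 (others 2.74 to 32.8) and at 133 in WD females replicate 2 (others 24.8 to 50.2). Fads2 was at 3985 in WDF males replicate 2, against 2287 to 2734. That library was the highest of its group in 18 of 34 members, and its Sftpc was 5978. Scd1 was at 1613 in CDF males replicate 2, against 8556 to 11193. Nr1h3 was at 795 in CD males replicate 4 (others 374 to 488) and at 1169 in CDF females replicate 4 (others 485 to 551). Lpin2 was at 2487 in WD females replicate 1, against 1563 to 1789.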

How the results depend on the processing

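The number of members past the threshold for maternal fat was 1 and stayed 1 under 3 other scalings, a pseudocount of 0.5, no filter, a filter at 50 and limma-voom. It was 0 with all 40 libraries and with an erythroid covariate. It rose to 2 with a pseudocount of 5, 3 with 36 libraries, 4 at a threshold of 0.1 and 19 with library weights. All 12 erythroid markers were above 0 for maternal fat, so that covariate is not independent of the diet. Why these counts differed was not tested. All genes past the threshold were 7, and 3 with all 40 libraries, 11 with 36 libraries or a pseudocount of 5, 22 at a threshold of 0.1, 0 with the erythroid covariate and 486 with library weights. Library weights also gave 2 members in WD against CD males (of 145 genes), 10 in WDF against CDF males (of 241) and 1 in WDF against WD males (of 621). With only the 2 groups of a pair in the fit, 0 members passed in any pair. In WD against CD females 1 gene of 14096 then passed. Leaving out each library in turn gave 0 to 8 members for maternal fat, 0 to 4 for WDF against CDF males and 0 elsewhere. The median over members for maternal fat lay between -0.38 and -0.14 over the settings and between -0.30 and -0.22 with a library left out. In females the median was -0.23 at 2 mg/kg and -0.17 at 10 mg/kg folic acid. It was 0.06 and 0.14 with all 40 libraries, -0.43 and -0.21 with 36, and -0.39 and -0.03 with limma-voom. With a library left out it lay between -0.43 and -0.10 and between -0.21 and -0.06. The difference between sexes, 0.21, was 0.47 with all 40 libraries, 0.12 with library weights and 0.02 with 36 libraries, and lay between 0.09 and 0.24 with a library left out. For folic acid in females on 10% fat the median was 0.03, and -0.21 with limma-voom, with 28 of 34 members below 0. In that fit 0 members and 2207 of 15377 genes were lower at an unadjusted p under 0.05. Among the named members no difference changed sign under any setting. With the replicate number as a block, 1 member passed (Acss2, -1.03, adjusted p = 0.0458) and the median was -0.24. Same-numbered libraries correlated between -0.543 and 0.274 in their deviations, above 0.1 in 12 of 36 pairs of libraries, so the numbers are not taken to pair them. The depth in reads is unknown, so how far few reads limit the members of lowest value (Pnpla3, Lpin3 and Elovl3) cannot be told. By the spread between libraries, Thrsp had the widest error for maternal fat.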

Other observations

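The following values were picked out after they were seen. In 5 libraries 17 or more of the 34 members were the lowest of their group, and Dgat1, Tecr and Nr1h3 differed among these libraries. In CD males replicate 4, the lowest in 19 members, Dgat1 was at 753 (next 266), Tecr at 7334 (next 3896) and Nr1h3 at 795 (next 488), each the highest of its group. In CDF females replicate 4, the lowest in 21 members, Dgat1 was at 566 (next 350), Tecr at 5918 (next 4178) and Nr1h3 at 1169 (next 551), again the highest. In CD females replicate 5, the lowest in 27 members, Nr1h3 was the highest at 600, Dgat1 the second highest at 256 and Tecr the lowest at 2279. In CDF males replicate 2, the lowest in 23 members, Tecr (1940) and Nr1h3 (362) were the lowest, and Dgat1 was at 211. In WD males replicate 5, the lowest in 17 members, Dgat1 (155), Tecr (1523) and Nr1h3 (405) were all the lowest.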
